A study of Mus musculus with 4 samples.

Results

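A set of 8 genes of axon regeneration and the growth cone were followed in the sympathetic ganglia (SG) of mice with altered neurotrophin-3 (NT-3) signalling. The 8 genes were Gap43, Basp1, Marcks, Sprr1a, Sox11, Atf3, Gadd45a and Ecel1, chosen by name with earlier results of these data known. All 8 were listed in each of the 4 RNA-seq libraries, among 17667 genes listed in at least 1 library and 15275 listed in all 4. Gap43 was nearly level over the libraries, Basp1 and Ecel1 lay slightly below WT in AdNTF3-Tg and slightly above it in the library labelled TRKC+/-, Marcks was higher in both mutant libraries than in either wild-type (WT) library by less than the study's cutoff for a change, and Sox11 and Atf3 differed more between the 2 WT libraries than either mutant library did from either of them. Sprr1a was at 2 to 6 reads per library.

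The libraries were made from T1-T4 SG, the chain ganglia that hold the cell bodies of sympathetic neurons innervating upper-body targets, including interscapular brown fat. All mice were C57BL/6, 12 weeks old and had spent 1 day at 5 °C, the WT controls included, and ganglia of several mice were pooled into each library. There were 2 WT libraries (WT 1 and WT 2), 1 library of AdNTF3-Tg mice, which overexpress NT-3 in adipocytes under the adiponectin promoter, and 1 library labelled TRKC+/-, from mice carrying 1 copy of the gene for the NT-3 receptor TRKC in the whole body. The comparisons ask whether more NT-3 from fat, or less of its receptor, goes with another level of these genes in whole ganglia. These hold the neurons that innervate fat among other neurons and other cells. Because each mutant had 1 library, its differences from WT have no replicate check, and although the study describes WT controls for each mutant line, the labels do not say which WT library belongs to which mutant, so each mutant library was set against both.

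An injured peripheral neuron switches on a regeneration programme, in which transcription factors such as ATF3 and SOX11 are induced and effector genes follow. The growing axon ends in a growth cone, whose membrane carries GAP-43, BASP1 (CAP-23) and MARCKS, acidic proteins that bind calmodulin and phosphoinositides and regulate the cortical actin that pushes the membrane forward. Sympathetic neurons express GAP-43 into adult life, and NT-3 and the related nerve growth factor support the growth and branching of their axons in target tissue.

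GAP-43, BASP1 and MARCKS are held at the membrane by lipid added close to the start of the protein, and the first 30 coding bases of each gene are shown because they code for that anchor. The codons in capitals are the cysteines at positions 3 and 4 of GAP-43, which are palmitoylated, and the glycine at position 2 of BASP1 and MARCKS, which is myristoylated, counted from the start codon as position 1. The bases are from the minus strand of NCBIM37, at chr16:42340586-42340615 for Gap43, chr15:25294635-25294664 for Basp1 and chr10:36858312-36858341 for Marcks.
Gap43: atgctgTGCTGTatgagaagaaccaaacag
Basp1: atgGGAggcaagctgagcaagaagaagaag
Marcks: atgGGTgcccagttctccaagaccgcagcg
The coding sequences from which they were read hold 227 codons for Gap43, 226 for Basp1 and 309 for Marcks.

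The libraries held 8665955 to 8894985 reads assigned to genes, so they differed little in depth, and a limit of 3 reads corresponds to 0.337 to 0.346 CPM (reads scaled to library depth). The 10 markers of sympathetic neurons, among them the noradrenaline synthesis genes Th and Dbh, summed to 9757 FPKM in WT 1, 9600.2 in WT 2, 9245 in AdNTF3-Tg and 9906 in the library labelled TRKC+/-. FPKM is reads scaled to transcript length and library depth, so it can be compared between genes. Markers of other cells varied more. The skeletal muscle markers summed to 80.0, 2.36, 29.2 and 36.2 FPKM and the adipocyte markers to 366, 332, 269 and 199.5 FPKM in the same order. The glial markers summed to 1118, 952, 1048 and 1086 FPKM and the macrophage markers to 212, 194.5, 148 and 164 FPKM. What part these cells had in the results that follow was not tested. Ntrk3, the gene for TRKC, had 78, 83, 76 and 91 reads in this order, so the library labelled TRKC+/- held the most. Its log2 fold change there, computed like all those that follow from FPKM + 0.1 except where edgeR is named, was 0.15 against WT 1 (95% counting interval -0.26 to 0.65) and 0.11 against WT 2 (-0.32 to 0.57). The exons lacking in that allele are not given in the sources used here, so a count over the whole gene is a limited check of the label. Ntf3, the gene for NT-3, had 2 reads in the library labelled TRKC+/- and was not listed in the others. The transgene of AdNTF3-Tg acts in adipocytes, of which that library held some RNA (Adipoq, whose promoter drives the transgene, had 71 reads), so the lack of Ntf3 reads in these ganglia is a weak check of it.

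The 8 genes spanned a 695-fold range of mean level over the 4 libraries. Gap43 was the highest, at 372 ± 8.77 FPKM (SD over all 4 libraries), above 99.1% of the genes listed in all libraries and at rank 145 among them. Basp1 had 126 ± 7.76 FPKM (percentile 95.8), Ecel1 57.3 ± 4.18 FPKM (percentile 90.3) and Marcks 33.2 ± 4.83 FPKM (percentile 82.9). These growth cone genes and the peptidase Ecel1 were thus far above the median gene, at 7.89 FPKM. Atf3 had 11.4 ± 1.63 FPKM and Gadd45a 9.28 ± 0.677 FPKM, at percentiles 58.7 and 53.7. Sox11 had 0.678 ± 0.179 FPKM and Sprr1a 0.535 ± 0.266 FPKM, at percentiles 13.0 and 10.9. Neighbours in this order did not overlap over the libraries, except Atf3 (9.90 to 13.3 FPKM) with Gadd45a (8.68 to 10.1 FPKM) and Sox11 (0.51 to 0.89 FPKM) with Sprr1a (0.31 to 0.92 FPKM). The length behind the FPKM of Sox11 was 8451 bases in the files, whereas the single exon annotated in GENCODE vM1 spans 2013 bases, so its per-length level depends on the transcript model.

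**Figure D1:**
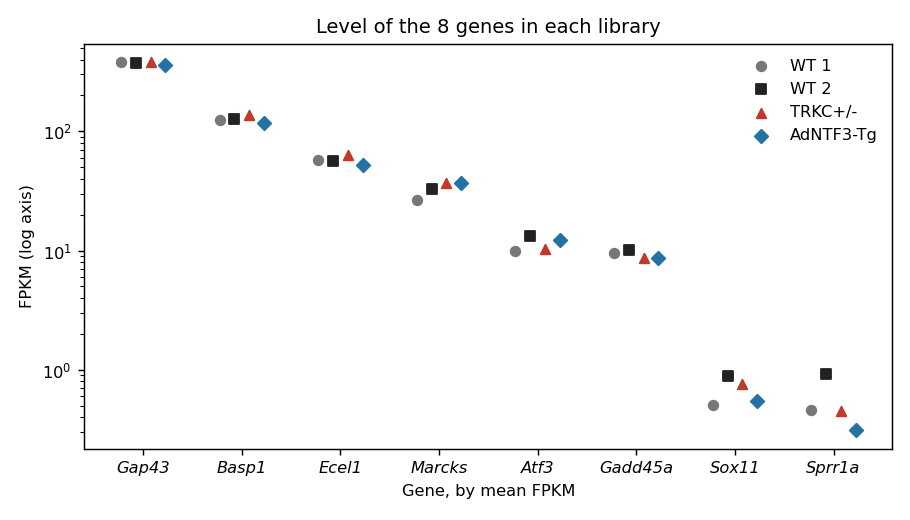
Level of each of the 8 genes in the 4 libraries, in FPKM on a log axis, with 1 point per library (circles WT 1, squares WT 2, triangles the library labelled TRKC+/-, diamonds AdNTF3-Tg) and the genes ordered by mean level. Gap43 lies at 359.7 to 379 FPKM in every library, whereas Sox11 and Sprr1a stay below 1 FPKM.

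Among the membrane proteins of the growth cone, Gap43 on chromosome 16 (42248555 to 42340764, NCBIM37, minus strand) encodes the growth-associated protein by which growing axons are commonly recognised. It had 379 FPKM in WT 1 (4159 reads), 372 in WT 2 (4109 reads), 359.7 in AdNTF3-Tg (3954 reads) and 378 in the library labelled TRKC+/- (4229 reads). The 4 libraries thus lay within 0.07 of each other on the log2 scale, and 82.5% of the 349 genes of like depth, within 1.5-fold of its mean reads, had a wider range. The log2 fold change of AdNTF3-Tg was -0.07 against WT 1 (-0.15 to -0.02) and -0.05 against WT 2 (-0.11 to 0.02). The library labelled TRKC+/- was at -0.00 (-0.07 to 0.05) and 0.02 (-0.03 to 0.09). These intervals are exact 95% limits for the counting error of the reads alone. They rest on reads scaled per library, so they need not be centred on the log2 fold changes from FPKM. For Gap43 they ran from -0.15 to 0.09 in all 4 comparisons.

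Basp1 on chromosome 15 (25293040 to 25343519, NCBIM37, minus strand) encodes the brain acid-soluble protein, which accompanies GAP-43 at the growth cone membrane. Its level was 124 FPKM in WT 1 (1943 reads), 127 in WT 2 (2015 reads), 118 in AdNTF3-Tg (1854 reads) and 136 in the library labelled TRKC+/- (2180 reads). The mutant libraries lay on opposite sides of the 2 WT libraries. AdNTF3-Tg was lower by -0.07 (-0.17 to 0.01) and -0.11 (-0.20 to -0.02) on the log2 scale against WT 1 and WT 2. The library labelled TRKC+/- was higher by 0.14 (0.05 to 0.22) and 0.10 (0.01 to 0.19). The 2 WT libraries differed by -0.04 (WT 1 against WT 2, -0.12 to 0.06), so both mutant differences were larger than that of WT, though small. Its range over the 4 libraries was 0.21, and 29.9% of 973 genes of like depth had a wider one.

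Marcks on chromosome 10 (36853049 to 36858732, NCBIM37, minus strand) encodes the myristoylated substrate of protein kinase C that crosslinks actin and leaves the membrane when phosphorylated. It had 26.6 FPKM in WT 1 (957 reads), 32.6 in WT 2 (1190 reads), 37.0 in AdNTF3-Tg (1343 reads) and 36.7 in the library labelled TRKC+/- (1349 reads). Both mutant libraries were above both WT libraries and nearly equal to each other. The log2 fold change of AdNTF3-Tg was 0.47 against WT 1 (0.36 to 0.60) but 0.18 against WT 2 (0.07 to 0.30), and that of the library labelled TRKC+/- 0.46 (0.34 to 0.58) and 0.17 (0.06 to 0.28). WT 1 was itself below WT 2 by -0.29 (-0.42 to -0.17), which is more than the distance from WT 2 to either mutant. The range of Marcks over the libraries, 0.47, was wide for its depth: 1.84% of the 1685 genes of like depth had a wider one, against a median range of 0.17. Marcksl1, the relative of Marcks that belongs to the same growth cone family, was named after its values were seen. It had 17.2 FPKM in WT 1, 22.3 in WT 2, 14.1 in AdNTF3-Tg and 18.2 in the library labelled TRKC+/-. AdNTF3-Tg was thus the lowest library for Marcksl1 and the highest for Marcks, with log2 fold changes for Marcksl1 of -0.28 (-0.57 to -0.01) and -0.66 (-0.93 to -0.40).

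Of the transcription factors, Atf3 on chromosome 1 (192994175 to 193007219, NCBIM37, minus strand) encodes a stress-induced bZIP factor widely used as a marker of axotomised neurons. It had 9.90 FPKM in WT 1 (166 reads), 13.3 in WT 2 (226 reads), 12.2 in AdNTF3-Tg (206 reads) and 10.3 in the library labelled TRKC+/- (176 reads). The mutant libraries lay between the 2 WT libraries. Atf3 in AdNTF3-Tg was at 0.30 (-0.00 to 0.60) against WT 1 and -0.13 (-0.41 to 0.15) against WT 2 in log2 fold change. For the library labelled TRKC+/- it was 0.05 (-0.26 to 0.37) and -0.37 (-0.67 to -0.08). WT 1 was below WT 2 by -0.43 (-0.72 to -0.13), the widest difference of this gene between any of these libraries.

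Sox11 on chromosome 12 (28025562 to 28027574, NCBIM37, minus strand) encodes an HMG-box factor of developing and regenerating neurons. Its level was 0.51 FPKM in WT 1 (37 reads), 0.89 in WT 2 (66 reads), 0.55 in AdNTF3-Tg (41 reads) and 0.76 in the library labelled TRKC+/- (57 reads). Again both mutants fell between WT 1 and WT 2 in level. WT 1 was below WT 2 by -0.70 (-1.44 to -0.21) on the log2 scale. AdNTF3-Tg was at 0.09 (-0.54 to 0.82) against WT 1 and at -0.61 (-1.28 to -0.10) against WT 2, past the cutoff against WT 2 alone. The library labelled TRKC+/- was at 0.50 (-0.03 to 1.23), just under the cutoff, and at -0.20 (-0.76 to 0.31). A change in Sox11 of the size of the difference between the WT libraries would not have been told apart from it. Of 12752 genes averaging 1 FPKM or more, 51 had a pattern over the 4 libraries within 0.1 of that of Sox11 (root mean square difference of mean-centred log2 levels). Among the closest were Hectd2 (0.0436; 39, 64, 42 and 61 reads in WT 1, WT 2, AdNTF3-Tg and the library labelled TRKC+/-) and Exosc6 (0.0460), over 4 libraries only.

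The promoters of Atf3 and Sox11 are shown because these genes, with Marcks, were lowest in WT 1 and their counting intervals separated the WT libraries. Each runs from 250 bases before to 50 bases after the annotated start on the minus strand of GRCm38.p6, in the RefSeq promoter table, at chr1:191183284-191183583 for Atf3 and chr12:27342669-27342968 for Sox11.
Atf3: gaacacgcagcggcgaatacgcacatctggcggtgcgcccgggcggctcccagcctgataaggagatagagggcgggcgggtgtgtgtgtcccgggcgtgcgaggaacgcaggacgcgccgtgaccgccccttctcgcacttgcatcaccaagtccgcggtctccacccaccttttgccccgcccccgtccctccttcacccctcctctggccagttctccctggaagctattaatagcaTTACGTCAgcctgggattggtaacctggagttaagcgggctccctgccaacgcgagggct
Sox11: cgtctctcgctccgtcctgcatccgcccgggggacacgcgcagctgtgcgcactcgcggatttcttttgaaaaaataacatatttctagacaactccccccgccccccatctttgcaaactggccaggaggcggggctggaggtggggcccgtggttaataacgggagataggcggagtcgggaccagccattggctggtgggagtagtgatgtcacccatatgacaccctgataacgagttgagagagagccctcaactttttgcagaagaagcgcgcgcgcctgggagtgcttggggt
The capitals in the Atf3 promoter mark TTACGTCA, a variant of the cAMP response element that begins 10 bases before the start and that 0.499% of the 32851 promoters of the table hold on either strand. The full element TGACGTCA was in 0 of the 6 promoters of these genes in the table (1.79% of all promoters), and the AP-1 motif TGANTCA was in that of Sprr1a alone (7.81% of all promoters), at 146 and 116 bases before the start. These motifs were chosen after the sequences were seen, and a match is a description of the letters.

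Gadd45a, Ecel1 and Sprr1a are effector genes that injured neurons induce. Gadd45a on chromosome 6 (66985090 to 66987451, NCBIM37, minus strand) encodes a stress sensor of growth arrest and DNA repair. It had 9.62 FPKM in WT 1 (98 reads), 10.1 in WT 2 (103 reads), 8.74 in AdNTF3-Tg (89 reads) and 8.68 in the library labelled TRKC+/- (90 reads). Both mutant libraries were slightly below both WT libraries, and every interval held 0. The log2 fold changes were -0.14 (-0.58 to 0.28) and -0.20 (-0.63 to 0.22) in AdNTF3-Tg and -0.15 (-0.58 to 0.27) and -0.21 (-0.63 to 0.22) in the library labelled TRKC+/-. At this depth a lowering of this size was not detectable. Its range of 0.21 was narrow for its depth, since 86.3% of 2065 genes of like depth had a wider one.

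Ecel1 on chromosome 1 (89044230 to 89053096, NCBIM37, minus strand) encodes a membrane metallopeptidase, also known as DINE, that rises in damaged neurons and is needed for motor axon branching. Its level was 57.4 FPKM in WT 1 (1334 reads), 56.6 in WT 2 (1335 reads), 52.5 in AdNTF3-Tg (1232 reads) and 62.7 in the library labelled TRKC+/- (1491 reads). As for Basp1, the 2 WT libraries were close (0.02, -0.09 to 0.13) and the mutants lay on either side of them. AdNTF3-Tg had log2 fold changes of -0.13 (-0.24 to -0.01) and -0.11 (-0.22 to 0.00). The library labelled TRKC+/- was at 0.13 (0.02 to 0.24) and 0.15 (0.04 to 0.26). The range of 0.26 was wider than for most genes of like depth, 21.5% of 1508 having a wider one.

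Sprr1a on chromosome 3 (92287877 to 92289816, NCBIM37, minus strand) encodes a small proline-rich protein of the skin's cornified envelope that injured neurons also make. It had 3 reads in WT 1, 6 in WT 2, 2 in AdNTF3-Tg and 3 in the library labelled TRKC+/-, or 0.46, 0.92, 0.31 and 0.45 FPKM. No difference between these libraries is detectable at such counts, and the cutoff counts that follow pass or miss Sprr1a on a few reads. The keratinocyte markers Krt5 and Krt15 were not listed in any library, and Krt14 had 1 read in WT 1. Of the suprabasal keratins, Krt10 had 24 reads in WT 1, 25 in WT 2, 35 in the library labelled TRKC+/- and 27 in AdNTF3-Tg, and Krt1 had 9, 4, 10 and 8 reads.

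**Figure D2:**
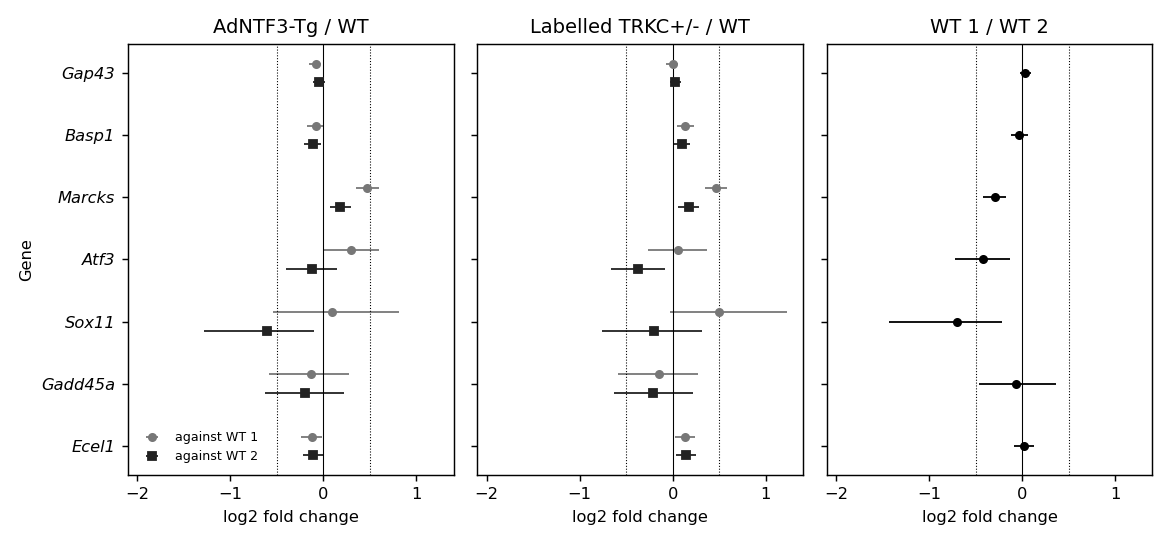
Log2 fold change of FPKM + 0.1 for 7 of the genes (Sprr1a is left out for its few reads) in each mutant library against WT 1 (grey circles) and WT 2 (black squares), and in WT 1 against WT 2, with bars for the 95% counting interval and dotted lines at the cutoff of 0.5. Marcks is right of 0 against both WT libraries in both mutants, Basp1 and Ecel1 are left of 0 in AdNTF3-Tg and right of 0 in the library labelled TRKC+/-, and Sox11 (-0.70) and Atf3 (-0.43) are farthest from 0 between the WT libraries.

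A gene was counted as past the cutoff when its log2 fold change was at least 0.5 in the same direction against both WT libraries. In AdNTF3-Tg 0 of the 8 genes were past it, against 5.7% of the 15275 genes (2.12% higher and 3.58% lower). In the library labelled TRKC+/- it was likewise 0 of 8, against 4.27% of all genes (1.78% higher and 2.49% lower). With 8 genes, none past the cutoff is close to what such shares give, so it sets the genes apart from the rest in neither direction. Against WT 2 alone, Sprr1a and Sox11 were past the cutoff in AdNTF3-Tg, where 13.3% of all genes were, and Sprr1a in the library labelled TRKC+/-, where 12.7% were. Against WT 1 alone it was 0 of 8 in each mutant, beside 13.9% of all genes in AdNTF3-Tg and 10.7% in the library labelled TRKC+/-.

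Counted by direction at any size, 5 of the 8 genes (Gap43, Basp1, Sprr1a, Gadd45a and Ecel1) were lower in AdNTF3-Tg than in both WT libraries, where 34.0% of all genes were, and Marcks alone was higher, where 33.7% were. In the library labelled TRKC+/-, Basp1, Marcks and Ecel1 were higher than in both WT libraries (31.9% of all genes) and Sprr1a and Gadd45a lower (30.8%), though Sprr1a had 3 reads both there and in WT 1. Each of these directions was the same with FPKM, with TMM-scaled counts and with ratios centred on their median. The median log2 fold change of the 8 genes was -0.07 against WT 1 and -0.12 against WT 2 in AdNTF3-Tg, and 0.09 and -0.09 in the library labelled TRKC+/-. The medians of all genes were -0.00 and 0.00 in AdNTF3-Tg and 0.00 and 0.00 in the library labelled TRKC+/-. Both comparisons use the same WT libraries.

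By counting error alone, the interval was above 0 against both WT libraries for Marcks in AdNTF3-Tg (5.18% of all genes) and for Basp1, Marcks and Ecel1 in the library labelled TRKC+/- (2.46% of all genes). It was below 0 for 0 of the 8 genes in each mutant, where 5.0% and 2.14% of all genes were. Deep genes have narrow intervals. Of the 2032 genes averaging 1000 reads or more, to which these 3 genes and Gap43 belong, 15.4% had an interval above 0 in AdNTF3-Tg and 7.14% in the library labelled TRKC+/-. Below 0 it was 13.9% and 6.25% of them, and none of these 4 genes. By counting error, 3 of these 4 genes were above both WT libraries in the library labelled TRKC+/-, by log2 fold changes of 0.10 to 0.46. Such intervals leave out the variation between libraries.

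With edgeR's quasi-likelihood test on the counts of all 4 libraries, in which the spread comes from the 2 WT libraries alone, 7 of the 8 genes passed the filter on low counts and Sprr1a did not. The adjusted p was under 0.05 for 0 of the 7 genes in each mutant, beside 0 of 14156 genes tested in AdNTF3-Tg (0 by DESeq2) and 1 (0.00706%) in the library labelled TRKC+/- (2 by DESeq2). The 1 gene was Ucp1, the uncoupling protein of brown adipocytes, which was lower by -2.62 on the log2 scale. That library also had the lowest level of 4 of the 5 adipocyte markers, Ucp1 included, with Adipoq lowest in AdNTF3-Tg. What part adipocyte RNA had in this was not tested. Marcks alone had an unadjusted edgeR value under the 0.05 threshold, in both mutants, and in neither of them by DESeq2 or by edgeR without the filter. Its edgeR log2 fold change was 0.32 in AdNTF3-Tg (edgeR adjusted p = 0.82) and 0.31 in the library labelled TRKC+/- (edgeR adjusted p = 0.999). Over all genes, 5.88% (832) and 1.93% (273) had an unadjusted edgeR p under 0.05 in these comparisons. The other 6 genes had edgeR log2 fold changes from -0.33 (Sox11) to 0.07 (Atf3) in AdNTF3-Tg and from -0.18 (Gadd45a and Atf3) to 0.14 (Ecel1) in the library labelled TRKC+/-, with edgeR adjusted p from 0.827 to 0.957 and at 0.999.

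The WT libraries, which share a genotype, set the scale for these differences. Sprr1a and Sox11 were past 0.5 between WT 1 and WT 2, as were 13.4% of all genes (5.67% lower and 7.71% higher in WT 1), and both were lower in WT 1. The counting interval left out 0 for Marcks, Sox11 and Atf3, all lower in WT 1, beside 20.2% of all genes, and 9.94% of all genes were lower and 10.3% higher in WT 1 by this measure. Sprr1a, Sox11, Atf3 and Gadd45a each had their highest level in WT 2, which holds the highest level of 23.4% of all genes. None of the 8 genes was lowest in WT 2, where 25.8% of all genes were. Marcks, Sox11 and Atf3 were lowest in WT 1 (25.0% of all genes) and Gap43, Basp1, Sprr1a and Ecel1 in AdNTF3-Tg (27.3%), leaving Gadd45a for the library labelled TRKC+/- (22.0%). Marcks alone was highest in AdNTF3-Tg (26.9% of all genes). Gap43 alone was highest in WT 1 (26.4% of all genes). Basp1 and Ecel1 had their highest level in the library labelled TRKC+/- (23.4% of all genes). The median log2 difference of WT 1 from WT 2 over the 8 genes was -0.18, against 0.01 over all genes. Whether these libraries differ by cohort or in the dissected tissue cannot be told apart here, and in whole ganglia fewer cells of a type and less RNA per cell cannot be told apart either.

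**Figure D3:**
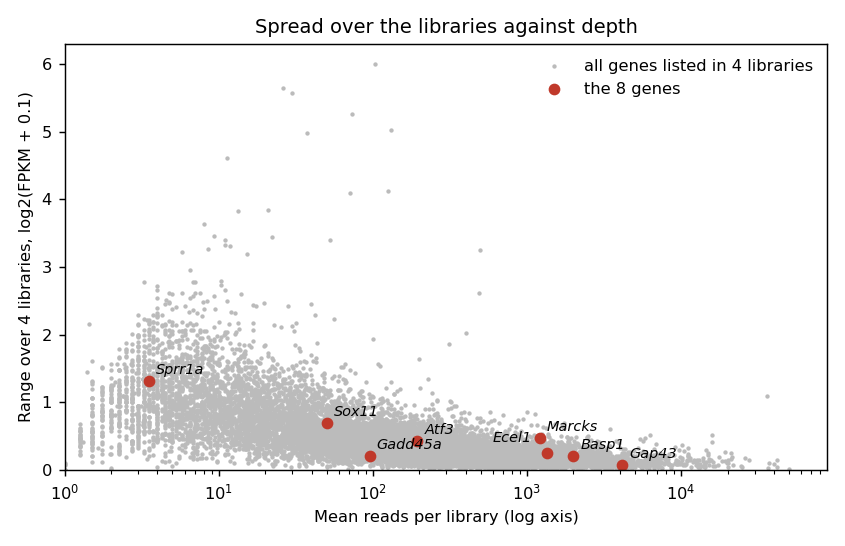
Range over the 4 libraries of log2(FPKM + 0.1) against the mean reads per library, on a log axis, with 1 grey point per gene listed in all libraries and the 8 genes in red. Marcks, at a range of 0.47, lies near the top of the genes of its depth, and Gap43, at 0.07, lies low.

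Other genes of the same biology were taken from a list of 30 regeneration-associated genes (factors such as Jun, Stat3 and Klf7, cytokines, neuropeptides and adhesion molecules) and a list of 28 growth cone genes (cytoskeletal regulators such as Stmn2, Map1b, Cfl1 and the Dpysl proteins). Of the regeneration genes 28 were listed in all libraries, and 0 were past the cutoff as higher and 1 as lower in AdNTF3-Tg, with 0 in the library labelled TRKC+/-, beside the 5.7% and 4.27% of all genes given before. The 1 gene was Lif, a cytokine of the injury response, named after its values were seen. Lif had 17 reads in WT 1, 20 in WT 2, 15 in the library labelled TRKC+/- and 9 in AdNTF3-Tg, and its counting intervals in AdNTF3-Tg held 0. Of the growth cone genes all 28 were listed and 0 were past the cutoff in either mutant. Jun, a factor that acts with ATF3 in injured neurons, had 489 reads in WT 1, 527 in WT 2, 459 in AdNTF3-Tg and 469 in the library labelled TRKC+/-. Stmn2, a tubulin-binding protein of the growth cone, had 15177, 15442, 14645 and 14919 reads in the same order, a range close to that of Gap43.

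The WT libraries were also set side by side for these lists, which were chosen with earlier results of these data known. Of the 28 regeneration genes, 24 (85.7%) were lower in WT 1 than in WT 2, beside 47.5% of all genes. Their median difference was -0.17 on the log2 scale. By counting error, 9 (32.1%) were lower in WT 1, namely Adcyap1, Cd44, Cebpd, Chl1, Socs3, Stat3, Vip, Tnfrsf12a and Flrt3, and Gal and Lgals1 were higher. Socs3, a feedback inhibitor of cytokine signalling, had 110 reads in WT 1, 183 in WT 2, 96 in AdNTF3-Tg and 135 in the library labelled TRKC+/-. Vip, an injury-induced neuropeptide, had 665, 1122, 901 and 819 reads in the same order. In WT 2 17 of the 28 genes (60.7%) had their highest level, beside 23.4% of all genes. The growth cone list had 7 of 28 (25.0%) highest in WT 2 and a median difference between the WT libraries of -0.01. By counting error 7 of the 28 growth cone genes (25.0%) and 4 of the 10 sympathetic neuron markers (40.0%) were also lower in WT 1, and 3 of the 28 growth cone genes (Gpm6b, Pfn1 and Dpysl3) and 3 of the 10 markers (Npy, Dbh and Th) were higher, beside 9.94% of all genes lower and 10.3% higher. Of the 8 immediate early genes, which handling and activity can induce, 6 were lower in WT 1 than in WT 2 and 4 of these by counting error (Fos, Fosb, Nr4a1 and Junb), while Dusp1 and Btg2 were slightly higher in WT 1. Fos had 323, 510, 508 and 423 reads in WT 1, WT 2, AdNTF3-Tg and the library labelled TRKC+/-. Fos, Fosb and Nr4a1 had their lowest level in WT 1, and Junb, Egr1 and Ier2 in AdNTF3-Tg. Markers of other cells also differed between the WT libraries. The 6 skeletal muscle markers listed in all libraries (80.0 against 2.36 FPKM summed over the list), all 4 fibroblast markers (270.3 against 200.6 FPKM) and 6 of 8 glial markers were higher in WT 1 by counting error. Their part in the difference was not tested.

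**Figure D4:**
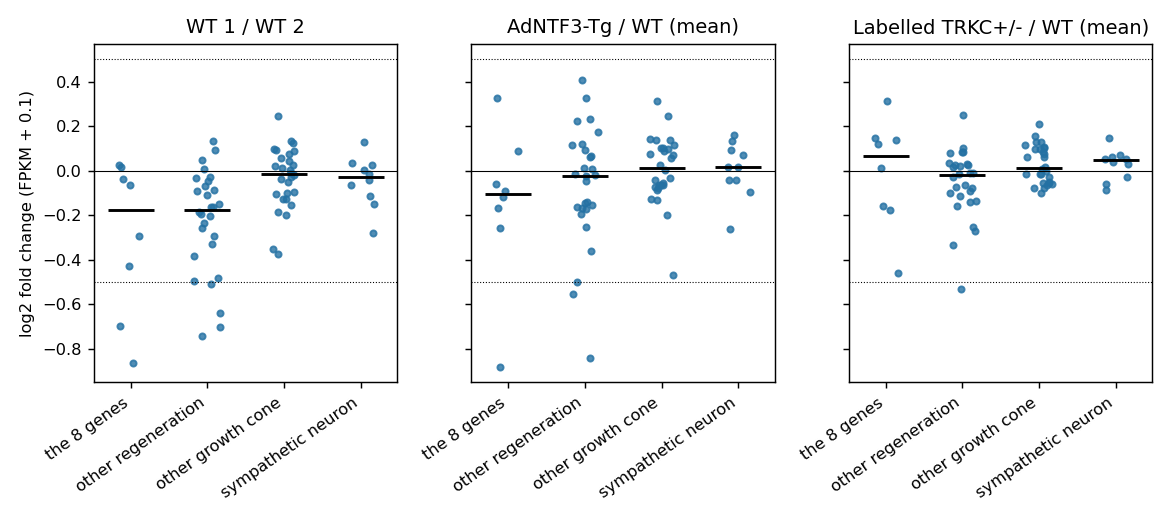
Log2 fold changes of the 8 genes, the other regeneration genes, the other growth cone genes and the 10 sympathetic neuron markers, with 1 point per gene listed in all libraries, a bar at each median and dotted lines at the cutoff of 0.5, for each mutant (mean over both WT libraries) and for WT 1 against WT 2. The medians of the mutants lie near 0. The points of the regeneration genes in WT 1 against WT 2 lie mostly below 0 (24 of 28). The lists were chosen with earlier results of these data known.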

How the data were processed

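Poly(A) RNA of T1-T4 SG was sequenced as 4 libraries. Per the file headers, the deposited tables give, for each gene, an expected count (estimated reads per gene), FPKM as normalized by the authors, and the transcript length. The study's methods state HISAT2 and mm9, whereas the submitters' processing notes name RSEM and mm10. The strand used in counting is not stated. The tables hold no coordinates, so gene positions came from GENCODE vM1 on NCBIM37.

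The 8 genes and the lists were chosen with earlier results of these data known. From FPKM, log2((FPKM + 0.1)/(WT FPKM + 0.1)) was computed against each WT library over the 15275 genes listed in all 4 tables, and this scale understates changes of low genes. A gene past the cutoff had an absolute value of at least 0.5, the study's cutoff, in the same direction against both. Counting intervals (exact Clopper-Pearson, 95%) rest on rounded expected counts and cover counting error only. They are scaled per library and not per gene, so an interval can miss the log2 fold change from FPKM. For Npy in WT 1 against WT 2 that was 0.128 and the interval 0.132 to 0.207. Expected counts were rounded for edgeR 4.0.16 (quasi-likelihood, TMM, filterByExpr, Benjamini-Hochberg, threshold 0.05) in R 4.3.3, with 3 groups (2 WT, 1 and 1). The spread then has 1 residual degree of freedom, each mutant library is assumed to vary like WT, and since the study describes WT controls for each mutant line, that spread may hold a difference between control groups. DESeq2 1.42.0 was an alternative, with other pseudocounts, filters, scalings and each WT library left out. The procedure was tested on simulated data. Besides the 8 genes, the text names Ntrk3, Ntf3, the listed genes past the cutoff with at least 30 reads in a library, and the 3 genes most like the widest-ranging of the 8 genes with at least 30 reads in every library, which is Sox11 (1 of these 3 is not reported here). Other names were added after their values were seen or as examples of a list.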

Additional observations from a re-analysis of the deposited data

How the results depend on the processing

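The count of genes past the cutoff depended on the treatment of low values, on the cutoff and on the WT libraries used. In AdNTF3-Tg 871 genes became 165 with a pseudocount of 1, 332 with a mean of at least 1 FPKM, 1552 with unlisted genes taken as 0, 178 at a cutoff of 1 and 2033 to 2116 with 1 WT library left out. In the library labelled TRKC+/- 653 genes became 105, 209, 1315, 135 and 1632 to 1933. Between WT 1 and WT 2, 2044 genes became 633, 926, 3381 and 538 under the first 4 of these. Of the 8 genes, 0 were past the cutoff in each mutant, except that Sprr1a alone was (1 gene) in AdNTF3-Tg with a pseudocount of 0.01, and that 0 to 2 genes (Sprr1a and Sox11 without WT 1) were in AdNTF3-Tg and 0 to 1 (Sprr1a without WT 1) in the library labelled TRKC+/- with 1 WT library left out. Without WT 1 and without WT 2, Marcks moved out of its counting interval, to 0.18 and 0.47 in AdNTF3-Tg and to 0.17 and 0.46 in the library labelled TRKC+/-. The other 120 FPKM values of the 8 genes stayed within theirs, which are wide for Sox11 and Atf3. These changed sign, Sox11 to -0.61 and 0.09 in AdNTF3-Tg and to -0.20 and 0.50 in the library labelled TRKC+/-, and Atf3 to -0.13 and 0.30 and to -0.37 and 0.05. The 56 edgeR values stayed on the same side of the threshold. The edgeR count in the library labelled TRKC+/- (1 gene) was 2 by DESeq2, 2 with DESeq2 size factors, 0 without the filter and 5 without the AdNTF3-Tg library in the fit, and in AdNTF3-Tg it was 0 in each, the fit there leaving out the library labelled TRKC+/-. The cause of these shifts was not tested. Median-centred ratios, the fits without the other mutant library and the alternatives for the WT libraries were chosen after seeing the data. No paired analysis was possible because the WT libraries carry numbers and the mutant libraries do not, so the labels tie no WT library to a mutant.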
